A study of Mus musculus with 24 samples.

Results

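The genes of the mitochondrial respiratory chain were examined in cultured mouse neurons on 24 microarrays. Members were all genes whose symbol begins with Nduf, Uqcr, Cox4 to Cox8 or Atp5, or is Sdha, Sdhb, Sdhc or Sdhd or begins with one of these, which brings in the assembly factors named Ndufaf and Sdhaf. This gave 94 of the 18194 genes with a symbol of their own on the array, each read from the brightest of its probe sets on average. Of the 94, 89 passed a filter on low signal (above the array median on at least 2 arrays) and were tested: 35 of complex I, 4 of complex II, 8 of complex III, 13 of complex IV, 17 of complex V and 12 assembly factors. Ndufb4, Cox4i2, Cox7b2, Cox8b and Cox8c did not pass.

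The cultures came from littermate C57Bl/6 mouse embryos at embryonic day 14 that were wild type (WT) or knockout (KO) for Npas4, a transcription factor gene switched on by neuronal activity. Neurons were taken from the medial ganglionic eminence (MGE), the source of many cortical inhibitory neurons, or from the cortex (CTX), and kept for 10 days in vitro. All groups, the 0 h arrays included, were silenced overnight from day 9 with TTX, a sodium channel blocker, and AP-5, an NMDA receptor antagonist. Raising KCl to 55 mM for 0, 1 or 6 h then depolarized the neurons. The 12 combinations of cell type, genotype and time had 2 arrays each, made from 100 ng of RNA. How the knockout allele was made, and whether embryos were pooled, is not given in the sources used here. Nothing states that the arrays of a group came from separate cultures, so p-values measure only the spread between these arrays, which may be technical.

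The respiratory chain carries electrons from NADH and succinate to oxygen and stores the released energy as a proton gradient across the inner mitochondrial membrane. Complexes I (NADH dehydrogenase), III (cytochrome bc1) and IV (cytochrome c oxidase) pump protons, complex II (succinate dehydrogenase) feeds in electrons without pumping, and complex V (ATP synthase) uses the gradient to make ATP. Most subunits are encoded in the nucleus and a few in the mitochondrial genome, dedicated factors assemble them, and neurons depend on the ATP they provide for ion pumping and synaptic transmission.

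Promoters of nuclear respiratory genes are known for sites of nuclear respiratory factor 1 (NRF1), of the ETS-family factor GABP, also called nuclear respiratory factor 2, and of YY1. RefSeq promoter windows of 250 bases before to 50 after the start (GRCm38.p6) were found for 78 of the 94 members and were searched on both strands for 4 motifs, none of which contains another. The NRF1 core GCATGCGC was in 11 members (14.1%, against 3.05% of 27025 genes with a window), the ETS motif CCGGAAG in 22 (28.2% against 9.93%), and the YY1 motif AAGATGGC in 10 (12.8% against 3.19%). The cyclic AMP response element TGACGTCA, a palindrome, was in 3 members, Ndufa10, Ndufb2 and Uqcrfs1 (3.85% against 2.03%). The motifs were picked with the expression values known, and a match describes letters, not a bound site. Shown first are the ETS matches of the complex II assembly factors Sdhaf1, Sdhaf2 and Sdhaf3. The RNA of Sdhaf1 and Sdhaf2 fell at 6 h in both cell types, and that of Sdhaf3 in CTX cultures only. The CRE match of Ndufb2, which rose in CTX cultures, follows. Last are the NRF1 core matches of Uqcrc1 and Ndufaf4, which differed between cell types, as most members did. No other member with an ETS match was called at 6 h in WT cultures, and neither Ndufa10 nor Uqcrfs1 was called there. A link between motif and response was not tested. Each stretch is 30 bases, read 5′ to 3′ along the gene's strand, with the match or overlapping matches in capitals.
Sdhaf1, chr7:30322350-30322379, minus strand: tcggggcggtcCTTCCGGccagtgtggggc
Sdhaf2, first match, chr19:10525349-10525378, minus strand: cccccgccctcCTTCCGGccccgccggccc
Sdhaf2, second match, chr19:10525175-10525204, minus strand: ctcggttgcgcCTTCCGGcttggggtccac
Sdhaf3, chr6:6955880-6955909, plus strand: aatccgggtttCCGGAAGgacaagattcta
Ndufb2, chr6:39592540-39592569, plus strand: gtgcgacgcagTGACGTCAcgggccgggac
Uqcrc1, chr9:108936667-108936696, plus strand: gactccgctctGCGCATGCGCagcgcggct
Ndufaf4, first match, chr4:24897959-24897988, plus strand: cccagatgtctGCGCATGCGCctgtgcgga
Ndufaf4, second match, chr4:24898073-24898102, plus strand: gcccctggtgtGCGCATGCtccgtgcgtac

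All levels below are log2 of the deposited intensity, and all changes are log2 differences of group means with their standard error (SE), from limma fitted to all 24 arrays with Benjamini-Hochberg adjustment over 12378 tested genes. A gene was called, and is said to have risen or fallen, at an adjusted p under 0.05. Shares of all genes are of such calls, so they are no background for counts of members at an unadjusted p. The 1 h and 6 h comparisons, the cell type comparisons and the genotype comparisons share arrays with one another, among them the 0 h arrays. Npas4 itself lay at 5.70 to 5.94 on the 4 WT arrays at 0 h and at 11.20 to 12.04 on the 4 at 1 h, against 6.80 to 7.35 on the 4 KO arrays at 1 h. Its 0 h values lay below the array median. Array medians of intensity ran from 115 to 121. The MGE WT 0 h arrays stood farther apart than any other pair, with a correlation of 0.951 and 1507 genes over 2-fold apart, against 0.965 to 0.992 and 116 to 980 genes in the other 11 groups. Results that rest on these arrays are given without each of them where that alters a call.

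Respiratory chain genes had high signals: 69 of the 89 tested members had a mean log2 intensity above 12, against 2146 of all 12378 genes. The mean over the 89 members was 12.66 to 12.82 on the 12 MGE arrays and 12.14 to 12.33 on the 12 CTX arrays. The ranges of the cell types did not overlap. The same held for each of the complexes I to V taken alone, while the assembly factors overlapped, at 10.56 to 11.02 on MGE arrays and 10.04 to 10.70 on CTX arrays.

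**Figure D1:**
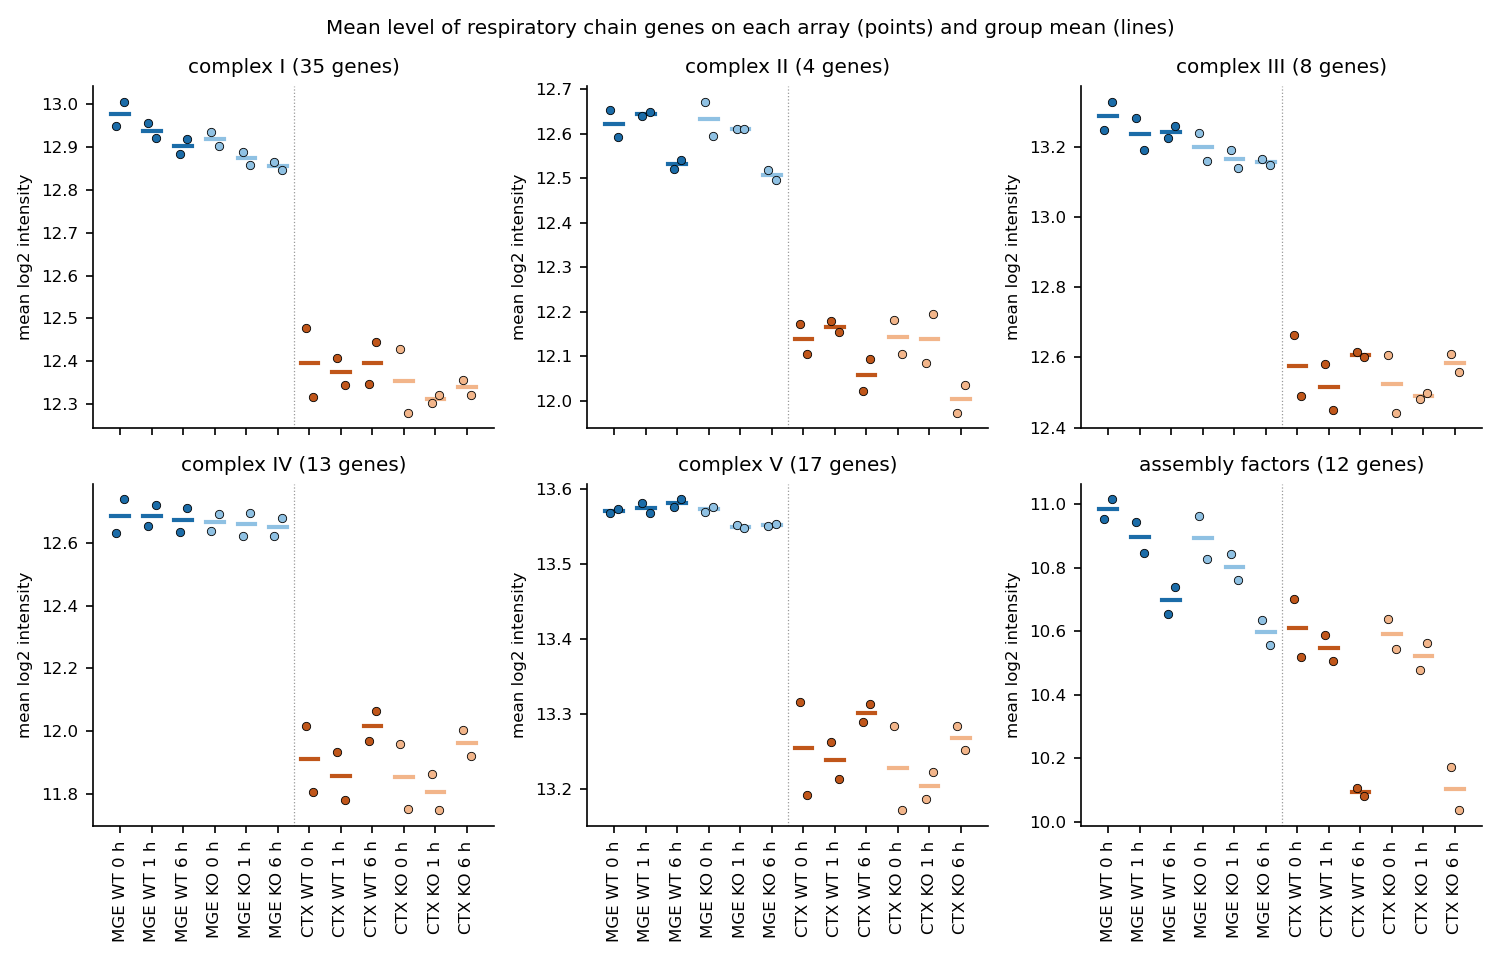
Mean log2 intensity of the tested genes of each complex and of the assembly factors (vertical axes, each with its own range) on each of the 24 arrays, by cell type, genotype and hours of KCl. Points are arrays and lines are means of the 2 arrays of a group. Every MGE array lies above every CTX array for complexes I to V, and the assembly factor means are lower at 6 h than at 0 h in all 4 combinations of cell type and genotype.

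The question of the first comparison is how resting MGE and CTX cultures differ. In WT cultures at 0 h, 70 of the 89 members were higher in MGE than in CTX cultures and 3 were lower (82% called). Of all tested genes, 64.2% were called in this comparison, 34.7% as higher and 29.5% as lower. The median difference was 0.48 over the members and 0.11 over all genes, and 83 of 89 differences were positive. For 77 members both MGE arrays were above both CTX arrays (86.5%, against 46% of all genes), and for 3 they were below (3.37%, against 37.1%). Among genes with a mean above log2 12, 64.3% of all genes and 85.5% of the 69 members were called, 58 of these 69 as higher and 27.7% of all such genes as higher.

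The KO cultures at 0 h share no array with the WT comparison. There 67 members were higher in MGE cultures and 1 lower, with a median of 0.49. Of all genes 47% were called, 26.6% as higher and 20.4% as lower. All 67 were also among the 70 of the WT cultures (95.7% of these), and Sdhaf3 was the lower gene in both. At 6 h in WT cultures 70 members were higher and 1 lower, with 56% of all genes called, 33.8% as higher and 22.2% as lower. Leaving out any 1 of the 4 arrays gave 59 to 70 called members at 0 h in WT cultures, 54 to 67 in KO cultures and 57 to 66 at 6 h.

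Complex I accounted for 30 of the higher genes, with a median difference of 0.59 over its 35. Among the largest were the core subunits that carry the iron-sulfur clusters nearest the quinone site, Ndufs8 and Ndufs7. Ndufs8 lay at 13.21 and 13.48 on the MGE WT arrays at 0 h, and at 12.31 and 12.02 on the CTX arrays. The cell types did not overlap, and the difference was 1.18 ± 0.14 (SE, 2.27-fold, limma adjusted p = 7.7e-06, n = 2 arrays per group). Ndufs7 differed by 1.14 ± 0.12 and the accessory subunit Ndufs5 by 1.18 ± 0.11. Ndufv1, which holds the NADH binding site, differed by 0.85 ± 0.11. Ndufa9, Ndufb1, Ndufc2 and Ndufa4l2 did not pass the test, with differences of 0.20, 0.27, 0.06 and 0.34.

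Ndufa4, named for complex I but now placed with complex IV, was the only subunit lower in MGE cultures, by 0.60 ± 0.22 (limma adjusted p = 0.026). Its 0 h values were 12.93 and 11.93 on the MGE WT arrays against 13.06 and 13.01 on the CTX WT arrays, so the difference came mostly from the second MGE array. Without that array it was -0.10 (adjusted p = 0.57), and in KO cultures it was -0.01. The call was also lost on leaving out either CTX array.

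In complex II, the iron-sulfur subunit Sdhb lay at 13.24 and 13.44 on the MGE WT arrays and at 12.47 and 12.27 on the CTX WT arrays at 0 h, a difference of 0.97 ± 0.12 (1.96-fold, limma adjusted p = 1.2e-05). Sdhb was above the CTX range on all 12 MGE arrays. The flavoprotein Sdha (0.39 ± 0.09) and the membrane anchor Sdhd (0.44 ± 0.09) were also higher, and the other anchor Sdhc was not called (0.14 ± 0.16). In complex III, 6 of 8 genes were higher. Uqcrq, a small subunit, lay at 13.12 and 13.37 against 11.99 and 11.73, a difference of 1.39 ± 0.11 (2.61-fold, adjusted p = 3e-07), and of 0.38 with the mean of its probe sets (adjusted p = 0.0011). Uqcrc1, a core subunit, differed by 1.21 ± 0.18 and Uqcr11 by 1.15 ± 0.13. The other core subunit, Uqcrc2, was not called, nor was Uqcrb.

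Complex IV held the largest differences of the chain, in genes known as tissue isoforms of ubiquitous subunits. Cox6b2, known as a testis isoform, lay at 10.89 and 12.14 on the MGE WT arrays at 0 h and at 8.71 and 8.25 on the CTX arrays. The repeats of the MGE groups stood apart, yet all 12 MGE arrays, at 10.89 to 12.30, were above all 12 CTX arrays, at 7.83 to 9.25. The difference was 3.03 ± 0.55 (8.18-fold, limma adjusted p = 0.0003), and 3.37 ± 0.55 in KO cultures. Cox6a2, the heart and skeletal muscle isoform, lay at 11.54 and 12.24 against 9.90 and 9.13, a difference of 2.38 ± 0.23 (5.19-fold, adjusted p = 2e-06). Its second probe set gave 2.46 ± 0.26. Cox7a1, another heart and muscle isoform, lay at 8.21 and 8.96 against 7.10 and 7.13, a difference of 1.47 ± 0.24 (2.78-fold, adjusted p = 0.00015).

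The ubiquitous partners of these isoforms gave stronger signals and differed by far less between the cell types. Over the 24 arrays Cox6b1 lay at 13.8 to 14.19, Cox6a1 at 13.87 to 14.18 and Cox7a2 at 14.04 to 14.19. Cox6b2 lay at 7.83 to 12.3, Cox6a2 at 9.13 to 12.24 and Cox7a1 at 5.98 to 8.96. Whether differences are compressed at the signals of the partners was not tested. Cox6b1 was higher by 0.26 ± 0.07 (0.23 and limma adjusted p = 0.052 without the second CTX array), Cox6a1 by 0.01 ± 0.08 (not called) and Cox7a2 by 0.05 ± 0.07 (not called). Cox6a1 had 14.07 and 14.02 on the MGE WT arrays at 0 h and 14.0042 and 14.0527 on the CTX arrays, which overlapped. Cox7a2l, which joins complexes III and IV into supercomplexes, was higher by 0.72 ± 0.12, Cox8a by 0.95 ± 0.11 and Cox4i1 by 0.43 ± 0.09. Their alternative isoforms Cox4i2, at 5.91 to 6.81 over the 24 arrays, Cox8b, at 4.90 to 5.74, and Cox8c, at 5.86 to 6.80, stayed at or below every array's median and were not tested. Cox7c, the last subunit of this complex without a call, had -0.32 ± 0.32.

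**Figure D2:**
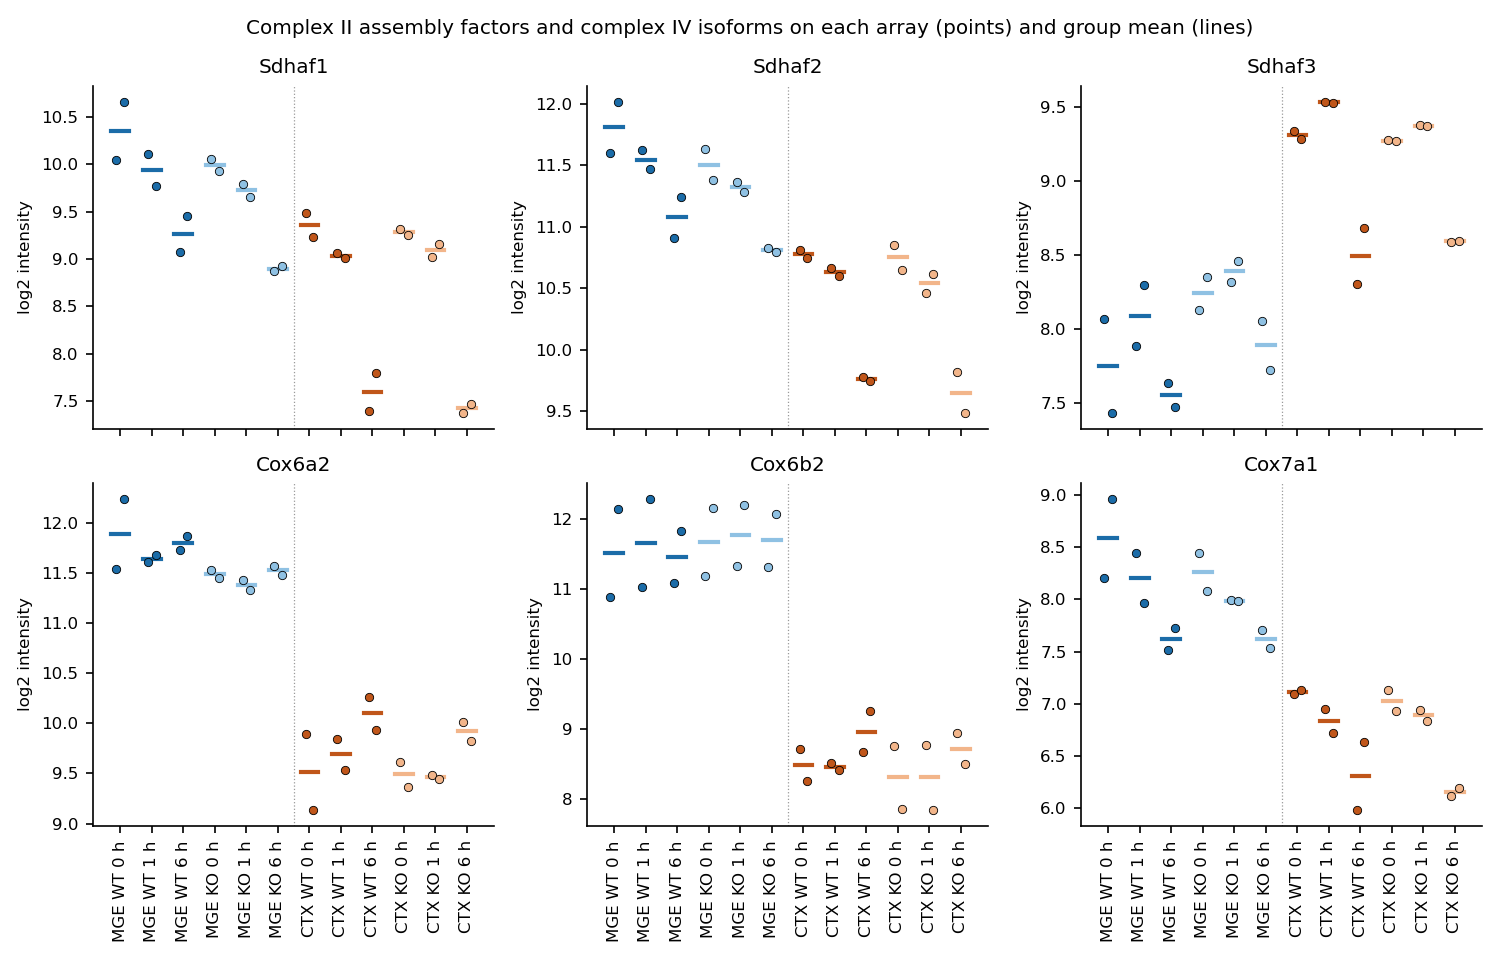
Log2 intensity of 3 assembly factors of complex II (Sdhaf1, Sdhaf2, Sdhaf3) and 3 tissue isoforms of complex IV (Cox6a2, Cox6b2, Cox7a1) on each array (points) with the mean of the 2 arrays of a group (lines). Each vertical axis has its own range and does not start at 0. Cox6a2 and Cox6b2 separate the cell types at every time, and Sdhaf1 and Sdhaf2 are lower at 6 h of KCl than at 0 h in all 4 combinations of cell type and genotype.

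In complex V, 13 of 17 genes were higher, with a median of 0.34, the smallest of the complexes. Atp5d, the delta subunit of the catalytic head, lay at 13.87 and 14.0049 against 13.35 and 13.15, a difference of 0.69 ± 0.10 (1.61-fold, limma adjusted p = 5.6e-05). The alpha subunit Atp5a1 (0.05 ± 0.08) and the gamma subunit Atp5c1 (0.11 ± 0.09) were not called, and the beta subunit Atp5b was higher by 0.30 ± 0.08 (0.23 and adjusted p = 0.075 without the second CTX array). The genes Atp5g1, Atp5g2 and Atp5g3 encode the same mature c subunit of the rotor. Atp5g1 was higher by 0.43 ± 0.09 (0.76 with the mean of its probe sets) and Atp5g2 by 0.37 ± 0.12, while Atp5g3 had 0.10 ± 0.07 and was not called. Without the second CTX array Atp5g2 had 0.28 (adjusted p = 0.13).

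The assembly factors went both ways, with 8 higher and 2 lower of 12. Ndufaf3, which helps to build complex I, lay at 11.76 and 12.12 on the MGE WT arrays at 0 h against 10.92 and 10.74 on the CTX arrays, a difference of 1.12 ± 0.16 (2.17-fold, limma adjusted p = 4.5e-05). Sdhaf1 (0.99 ± 0.19) and Sdhaf2 (1.03 ± 0.16) were also higher, although a second probe set of Sdhaf2 gave 0.16 ± 0.18 and was not called. Sdhaf3 was lower in MGE cultures: it lay at 8.07 and 7.43 against 9.34 and 9.28, a difference of -1.56 ± 0.19 (2.95-fold lower, adjusted p = 1.4e-05), and of -0.89 with the mean of its probe sets. Sdhaf4 was called lower as well, by 0.70, but its MGE values were 11.10 and 10.21. Without the second MGE array it had -0.26 (adjusted p = 0.33), without the first CTX array -0.51 (adjusted p = 0.15), and in KO cultures -0.04 ± 0.24. These 4 factors serve the same enzyme, Sdhaf1 and Sdhaf3 its iron-sulfur subunit and Sdhaf2 and Sdhaf4 its flavoprotein.

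The cultures were mixtures, and fewer cells of a type cannot be told apart from less RNA per cell in such samples. Of the excitatory markers 5 of 6 were lower in MGE WT cultures at 0 h, with a mean list level of 4.64 to 5.54 on MGE arrays and 10.98 to 11.32 on CTX arrays. Of the interneuron markers 7 of 8 were higher (12.32 to 12.87 against 9.79 to 10.68). Microglial markers had 3 of 5 higher (7.15 to 8.86 against 6.46 to 7.30), and oligodendrocyte markers 1 of 4 higher, the gene Cnp (9.34 to 9.96 against 7.92 to 8.86). Astrocyte markers had 1 of 5 higher (9.63 to 10.38 against 8.30 to 10.01), vascular markers 1 of 4 (7.66 to 8.43 against 7.01 to 8.17), and progenitor markers 2 higher and 1 lower of 6 (8.12 to 8.79 against 6.61 to 8.11). Of all genes 34.7% were called higher and 29.5% lower, so the astrocyte, vascular and oligodendrocyte counts were not above that share. The part of these cell types in the difference of the respiratory chain genes was not tested. ND5, a complex I subunit and the 1 gene of the mitochondrial genome measured, went the other way from most nuclear members, at 12.67 and 12.63 against 13.17 and 13.31 (-0.59 ± 0.14, limma adjusted p = 0.0021), and was not called in KO cultures (-0.19 ± 0.14).

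The second comparison asks what 6 h of depolarization did. Fewer of the subunit genes of the chain were called than of genes at large. In MGE WT cultures 4 of 89 members were called (4.49%), 1 higher and 3 lower, against 25.3% of all genes, 9.53% higher and 15.7% lower. In CTX WT cultures 11 were called (12.4%), 3 higher and 8 lower, against 35.2% of all genes, 10.5% higher and 24.8% lower. Of the 77 subunits 2 were called in MGE and 5 in CTX WT cultures, and of the 12 assembly factors 2 and 6. Cyclic loess between arrays turned the split in CTX WT cultures to 5 higher and 7 lower. Among genes with a mean above log2 12, none of the 69 members was called in MGE WT cultures (14.4% of all such genes) and 3 in CTX WT cultures (22.8%).

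The sizes were small as well. The median absolute change was 0.07 in MGE and 0.07 in CTX WT cultures over the members, and 0.35 and 0.37 over all genes. These sizes were not matched for signal level. A mean above log2 12 was found for 69 of the 89 members and for 2146 of all 12378 genes. Whether changes are compressed at high signals was not tested. For 78 members in MGE and 75 in CTX WT cultures, the 95% interval of the change lay inside 1.5-fold in either direction, with a median half-width of 0.22 log2 units. Because the normalization gives the arrays like distributions, these are changes relative to the bulk of genes. Complexes II and III had no called gene in either WT culture, and complex V had only Atp5d in CTX cultures.

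**Figure D3:**
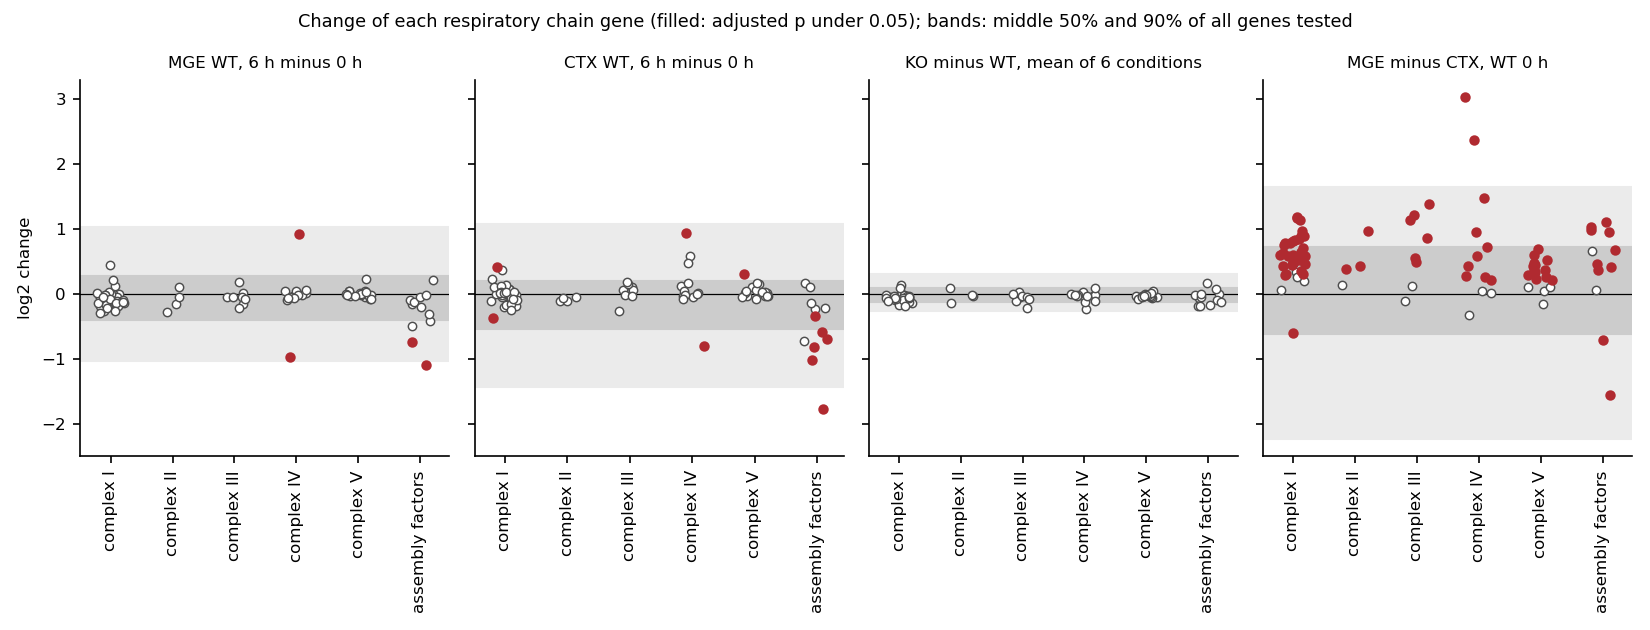
Log2 change of each tested member by complex (points, filled where the limma adjusted p was under 0.05) in 4 comparisons, with grey bands for the middle 50% and 90% of all 12378 tested genes. At 6 h of KCl most members lie close to 0 and the assembly factors reach lowest, to -1.76 for Sdhaf1 in CTX WT cultures. No member is filled in KO against WT, and most members are filled and above 0 in MGE against CTX at 0 h.

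Sdhaf1, the factor that protects the iron-sulfur clusters of Sdhb during assembly, fell the most in both cell types. In CTX WT cultures the 0 h arrays read 9.49 and 9.23, the 1 h arrays 9.06 and 9.01, and the 6 h arrays 7.40 and 7.80. Both 6 h arrays were below all others of these cultures, and the change was -1.76 ± 0.19 (3.39-fold lower, limma adjusted p = 9.5e-06). In MGE WT cultures the 0 h arrays read 10.05 and 10.66, the 1 h arrays 10.11 and 9.78, and the 6 h arrays 9.08 and 9.45, a change of -1.09 ± 0.19 (2.13-fold lower, adjusted p = 0.0012). In KO cultures it fell by 1.86 in CTX and by 1.10 in MGE. Leaving out any 1 array of a comparison did not end any of these 4 calls.

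Sdhaf2, which attaches the flavin to Sdha, fell from 10.81 and 10.74 to 9.78 and 9.75 in CTX WT cultures (-1.01 ± 0.16, limma adjusted p = 0.00017). In MGE WT cultures it fell from 11.60 and 12.02 to 10.91 and 11.24 (-0.73 ± 0.16, adjusted p = 0.0042). Its second probe set fell too, by 1.29 and 0.55. The MGE call was lost without the second 0 h array (-0.53, adjusted p = 0.065) or the first 6 h array (-0.57, adjusted p = 0.076). Sdhaf3 fell in CTX WT cultures, from 9.34 and 9.28 to 8.30 and 8.68 (-0.82 ± 0.19, adjusted p = 0.0041), and in MGE WT cultures had -0.20 ± 0.19. Sdhaf4, the fourth factor of complex II, was not called at 6 h in any of the 4 cultures.

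Of the WT cultures, only the CTX ones had called complex I factors at 6 h, and the difference between the cell types did not pass the test for any of them. Ndufaf6 went from 9.29 and 9.14 to 8.49 and 8.78 (-0.58 ± 0.14, limma adjusted p = 0.0058), and Ndufaf7 fell by 0.34. Without the first 6 h array Ndufaf6 had -0.435 (adjusted p = 0.064) and without the first 0 h array -0.51 (adjusted p = 0.057). Ndufaf7 lost its call without either 0 h array or the second 6 h array, where it had -0.18 (adjusted p = 0.35). Ndufaf4 went from 11.53 and 11.34 to 11.19 and 10.32 (-0.68 ± 0.23, adjusted p = 0.03), so most of its change came from the second 6 h array. Without that array it was -0.25 (adjusted p = 0.40), and a second probe set of Ndufaf4 had 0.16 ± 0.44.

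Among subunits, Cox7a1 fell in both WT cultures. It went from 8.21 and 8.96 to 7.52 and 7.73 in MGE cultures (-0.97 ± 0.24, limma adjusted p = 0.01) and from 7.10 and 7.13 to 5.98 and 6.64 in CTX cultures (-0.80 ± 0.24, adjusted p = 0.018). The 0 h and 6 h arrays did not overlap in either. Both CTX values at 6 h lay below the array median, so the size of the CTX change rests on low signals. The MGE call was lost without the second 0 h array (-0.59, adjusted p = 0.16) or the first 6 h array (adjusted p = 0.10). The CTX call was lost without either 0 h array or the first 6 h array, where it was -0.48 (adjusted p = 0.20).

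Cox7c was the 1 subunit that rose in both. It went from 9.07 and 8.61 to 9.74 and 9.81 in CTX WT cultures (0.93 ± 0.32, limma adjusted p = 0.032), and from 9.21 and 7.84 to 9.55 and 9.35 in MGE WT cultures (0.93 ± 0.32, adjusted p = 0.044). The second MGE 0 h array was the lowest of all 24 arrays for Cox7c, and without it the MGE change was 0.24 (adjusted p = 0.60). The MGE call was also lost without either 6 h array, and the CTX call without the second 0 h array (0.70, adjusted p = 0.22) or either 6 h array. In KO cultures Cox7c rose in CTX (1.05 ± 0.32, lost without either 0 h array or the first 6 h array, where it was 0.91) and was not called in MGE.

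The remaining calls were in CTX WT cultures and small. Ndufs1 fell from 12.27 and 12.09 to 11.77 and 11.83 (-0.38 ± 0.10, limma adjusted p = 0.0075), which was lost without the first 0 h array (-0.28, adjusted p = 0.094). Ndufb2, an accessory subunit of the complex I membrane arm, rose from 11.95 and 11.73 to 12.20 and 12.31 (0.42 ± 0.09, adjusted p = 0.0029), and its other probe sets gave 0.45 and 0.76. Without the second 0 h array the rise of Ndufb2 was 0.31 (adjusted p = 0.051). Atp5d rose from 13.35 and 13.15 to 13.55 and 13.58 (0.32 ± 0.10, adjusted p = 0.024), a call lost without the second 0 h array (0.22, adjusted p = 0.22) or either 6 h array. The 0 h and 6 h arrays of these 3 genes did not overlap.

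The response at 6 h was also measured in KO cultures, which share no array with the WT ones. In CTX KO cultures 12 members were called, 4 higher and 8 lower, against 36.2% of all genes, 11.3% higher and 24.9% lower. Of the 8 lower genes of the WT cultures 7 were also lower in KO cultures (87.5% of each list), namely Sdhaf1, Sdhaf2, Sdhaf3, Cox7a1, Ndufaf6, Ndufaf7 and Ndufs1. Atp5d, Cox7c and Ndufb2 rose in both, and Ndufb1 (higher, 0.49 ± 0.16) and Ndufv2 (lower, -0.28 ± 0.09) were called in KO cultures and not in WT cultures, with no test of the difference called. Among the CTX KO calls, those of Ndufb1, Ndufv2, Atp5d, Cox7a1, Cox7c, Ndufaf7, Ndufs1 and Sdhaf3 were lost without at least 1 single array. In MGE KO cultures 2 members were called, Sdhaf1 and Sdhaf2 (-0.69 ± 0.16), against 17.1% of all genes, 12.3% lower. Removing 1 array changed these counts to 6 to 8 for CTX WT, 4 to 8 for CTX KO and 1 to 2 for MGE KO cultures. For MGE WT cultures Sdhaf1 was the only call without the second 0 h array or the first 6 h array. Without the first 0 h array more members were called than in the full fit, beside a larger share of all genes.

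The difference between the cell types in the 6 h response passed the test for 0 members, against 10.9% of all genes. At an unadjusted limma p under 0.05, a looser threshold than that of this share, there were 6 members. The smallest limma adjusted p was 0.099, for Ndufaf6, with 0.54 ± 0.20 (MGE minus CTX). Sdhaf1 had 0.67 ± 0.27. Leaving out either MGE WT 0 h array or the first CTX WT 6 h array gave calls among the members. The share of all genes called was larger each time.

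At 1 h no member was called in any of the 4 cultures, with 0.574% of all genes called in MGE WT, 0.864% in CTX WT, 0.444% in MGE KO and 1.1% in CTX KO cultures. At an unadjusted p under 0.05 limma gave 1 member in MGE WT cultures and 0 in each of the other 3. The median change over the members ran from -0.04 to -0.02 across the cultures. Without the first MGE WT 0 h array some members were called at 1 h in MGE WT cultures, beside a larger share of all genes.

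**Figure D4:**
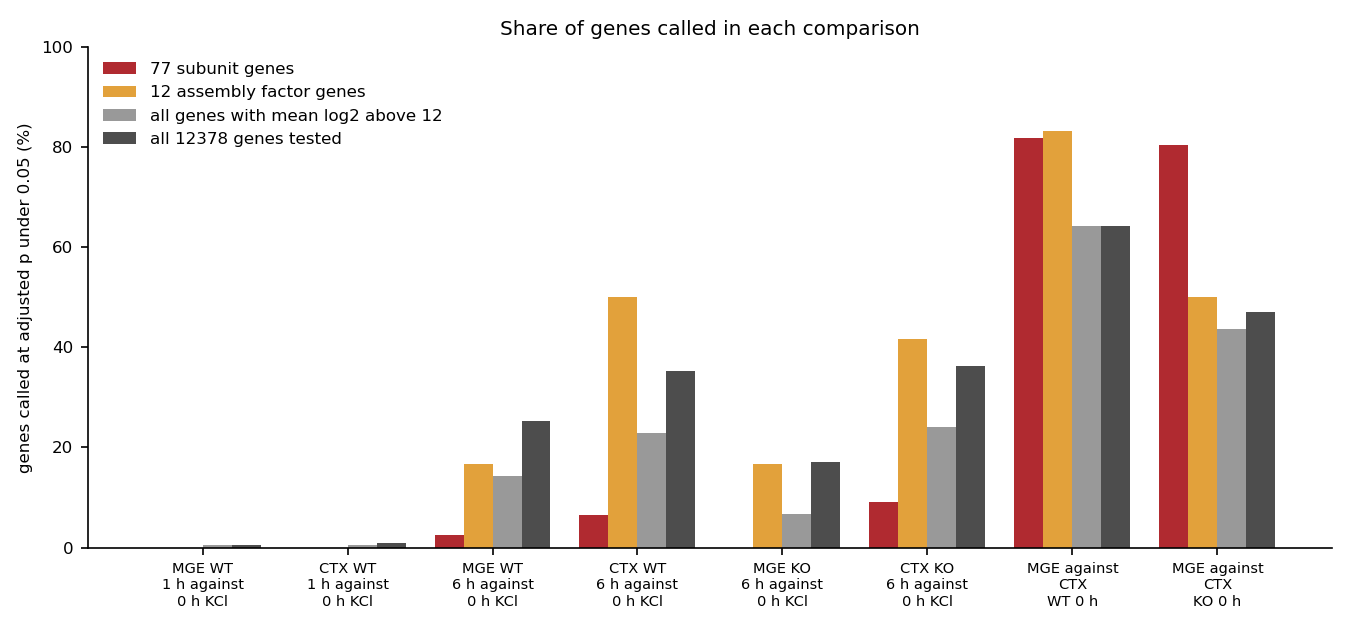
Percent of genes called at a limma adjusted p under 0.05 (vertical axis) in 8 comparisons, for the 77 tested subunit genes, the 12 tested assembly factors, all genes with a mean log2 intensity above 12 and all 12378 tested genes. The share of subunits called lies below that of either background at 6 h of KCl, as in MGE WT cultures where 2 of 77 were called, and above it in MGE against CTX.

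The third comparison asks which members depended on Npas4. None of the 89 was called in KO against WT in either cell type at 0, 1 or 6 h. Of all genes 0% were called at 0 h in both cell types, 0.0242% at 1 h and 0.0323% at 6 h in MGE cultures, and 0.00808% at 1 h and 0.0485% at 6 h in CTX cultures. The smallest limma adjusted p was 0.23, in MGE cultures at 0 h. At an unadjusted p under 0.05, a looser threshold than that of the shares above, 8 members passed there and 0 in the other 5 conditions. The largest differences of these 8 were those of Ndufa4 (0.57 ± 0.22), Sdhaf4 (0.56 ± 0.24), Sdhaf3 (0.49 ± 0.19) and Uqcrc1 (-0.47 ± 0.18). The MGE WT 0 h arrays of Uqcrc1 read 12.66 and 13.19, and those of the other 3 are given above. Without the first of these arrays some members were called, in both directions. The share of all genes called was then larger than that of the members. The KO differences of the 6 h response gave 0 called members in MGE cultures (0% of all genes) and 0 in CTX cultures (0.00808%). Leaving out the first MGE WT 0 h array gave a call among the members in MGE cultures, beside a larger share of all genes.

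Averaged over the 6 conditions, KO against WT gave 0 called members, against 0.0727% of all genes. At an unadjusted limma p under 0.05, a looser threshold than that of this share, there were 14 members. The 95% interval of all 89 lay inside 1.5-fold, with a median half-width of 0.09. In the 6 single conditions this held for 75 to 84 members, with a median half-width of 0.22. The average includes the 0 h arrays, on which Npas4 lay below the array median. Small negative values were frequent in the average: 75 of 89 members were below 0, with a median of -0.04 against -0.02 over all genes. At 1 h both KO arrays were below both WT arrays for 42 members in MGE cultures (47.2%, against 22.4% of all genes) and for 32 in CTX cultures (36%, against 15.4%). At 6 h this held for 43 in MGE cultures (48.3%, against 24.8%) and 23 in CTX cultures (25.8%, against 10.8%). At 0 h it held for 24 in MGE cultures (27%, against 20.6%) and for 4 in CTX cultures (4.49%, against 14%). Ndufs8 had -0.18 ± 0.06 and Ndufb9 -0.16 ± 0.05, both with a limma adjusted p of 0.18. Without the first MGE WT 0 h array, some members were called in this average, more of them lower than higher. A larger share of all genes was called there too.

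Genes that work beside the members were read from lists taken from textbook knowledge. A list of 33 other assembly factors and electron carriers had 12 lower and 0 higher genes at 6 h in MGE WT cultures and 9 lower and 0 higher in CTX WT cultures, with medians of -0.28 and -0.22 against -0.05 and -0.10 over all genes. Of all genes 15.7% were called lower in MGE and 24.8% in CTX WT cultures, so the CTX count of 9 of 33 was close to that share. Tmem126b, a complex I assembly factor, fell by 1.15 ± 0.19 in MGE and 1.53 ± 0.19 in CTX WT cultures, and Sco1, a copper chaperone of complex IV, by 0.67 and 1.26. Bcs1l, which inserts the Rieske protein into complex III, fell by 0.70 and 0.61 (-0.32 and limma adjusted p = 0.11 in CTX WT cultures without the first 6 h array). Atpaf1, which helps to assemble the head of complex V, fell by 0.46 and 0.97, and Cox17, another copper chaperone, by 0.47 and 0.51. Without the first MGE 6 h array the MGE calls were lost for Sco1 (-0.60), Bcs1l (-0.64), Atpaf1 (-0.37) and Cox17 (-0.38), and likewise without the second MGE 0 h array. In MGE against CTX WT cultures at 0 h, 20 of the 33 were higher and 4 lower, against 34.7% and 29.5% of all genes.

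A list of regulators of mitochondrial gene expression had 14 tested genes, of which 4 rose and 3 fell at 6 h in MGE and 3 rose and 4 fell in CTX WT cultures (50% in each, against 25.3% and 35.2% of all genes). Nrf1, encoding the factor named above, read 7.73 and 7.38 on the CTX WT arrays at 0 h, 8.04 and 7.92 on those at 1 h, and 10.83 and 10.36 on those at 6 h. The rise at 6 h was 3.03 ± 0.22 (limma adjusted p = 3.3e-07), and 1.80 ± 0.22 in MGE WT cultures, where it went from 8.13 and 8.60 to 10.42 and 9.92. With the mean of its probe sets it rose less, by 1.80 in CTX and by 1.19 in MGE WT cultures. All 8 arrays at 6 h were above all 16 others. Gabpb1, which encodes a GABP subunit, rose by 1.40 ± 0.15 in MGE and 0.72 ± 0.15 in CTX WT cultures (1.37 in CTX with the mean of its probe sets). Gabpa, another GABP subunit gene, rose by 1.536 in MGE WT cultures, a call lost under an alternative. In WT cultures at 0 h Gabpa was lower in MGE than in CTX, by -3.183, or -2.086 with the mean of its probe sets. Ppargc1a, a coactivator of these factors, had 0.34 and -0.46 and was not called. Ppargc1b rose by 0.75 in MGE and fell by 0.54 in CTX WT cultures. Its MGE call was lost without the first 0 h array (0.55, adjusted p = 0.073) or either 6 h array, and its CTX call without either 0 h array or the second 6 h array (-0.24, adjusted p = 0.44).

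The 3 regulators that fell in both WT cultures were Tfam, Tfb1m and Tfb2m, while Polg, the polymerase of mitochondrial DNA, had 0.01 in MGE and -0.04 in CTX WT cultures and was not called. Tfam, which packages that DNA and starts its transcription, went from 11.78 and 11.78 at 0 h to 10.25 and 10.09 at 6 h in CTX WT cultures (-1.61 ± 0.12, limma adjusted p = 4e-07), and from 11.66 and 11.49 to 10.69 and 10.68 in MGE WT cultures (-0.89 ± 0.12, adjusted p = 0.00016). With the mean of its probe sets Tfam had -0.50 in MGE WT cultures (adjusted p = 0.063) and -0.46 in MGE KO cultures (adjusted p = 0.11), and neither was called. Tfb1m, which methylates mitochondrial ribosomal RNA, fell by 1.89 ± 0.18 in MGE and fell by 1.44 ± 0.18 in CTX WT cultures, and Tfb2m, needed for transcription, by 0.52 and 0.66. The Tfb2m calls were lost without the second MGE 0 h array (-0.32, adjusted p = 0.36), either MGE 6 h array or the first CTX 6 h array (-0.38, adjusted p = 0.12). ND5, which is transcribed from mitochondrial DNA, had 0.20 ± 0.14 in MGE and -0.01 ± 0.14 in CTX WT cultures at 6 h. None of these regulators was called in KO against WT in any condition.

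**Figure D5:**
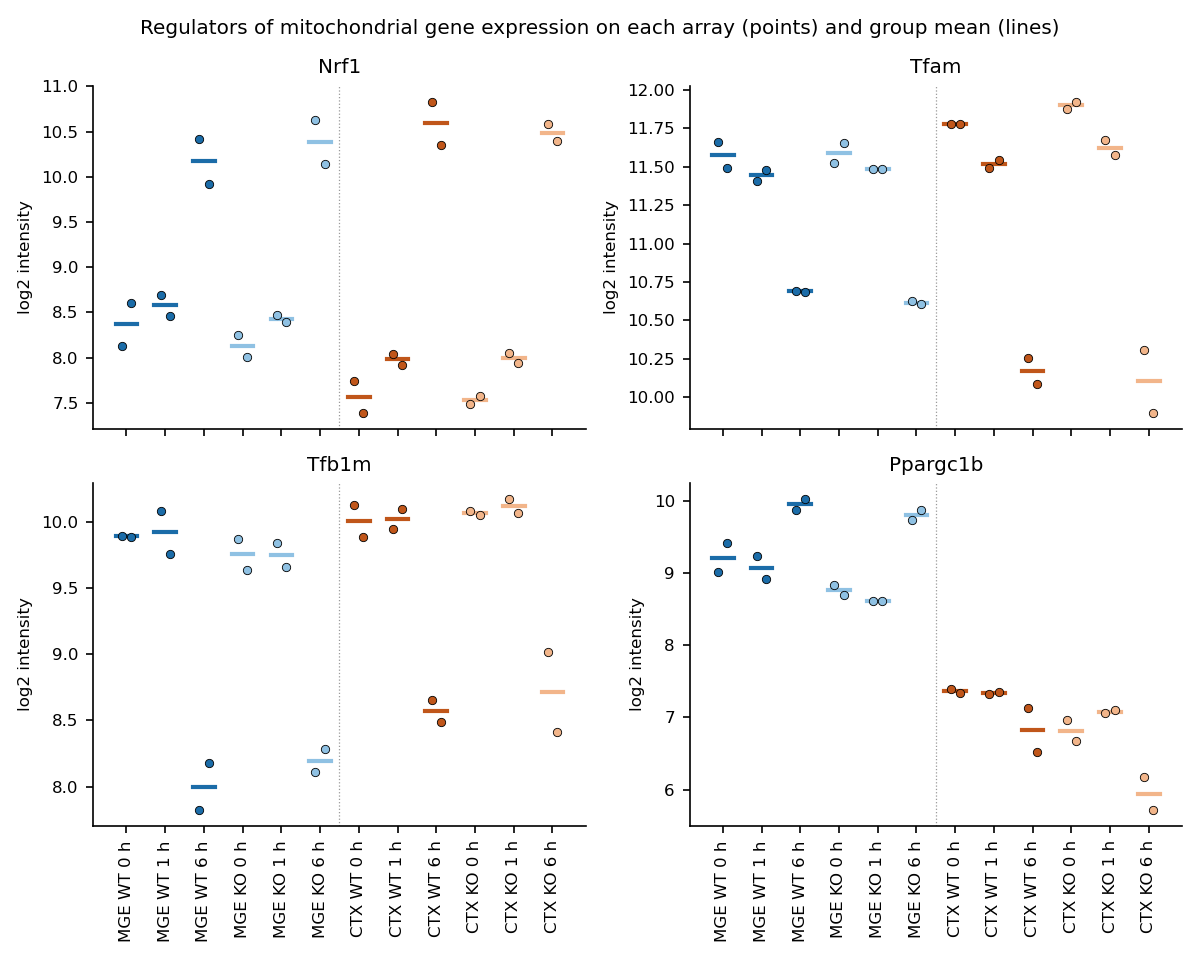
Log2 intensity of 4 regulators of mitochondrial gene expression on each array (points) with the mean of the 2 arrays of a group (lines). Vertical axes have their own ranges and do not start at 0. Nrf1 is high and Tfam and Tfb1m are low at 6 h of KCl in both cell types and genotypes, whereas Ppargc1b at 6 h is above 0 h in MGE and below it in CTX cultures.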

How the data were processed

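The authors deposited linear intensities, from 6.61 to 29464, of 45101 probe sets for each of 24 arrays. The submitters' processing notes name RMA, a background correction, normalization and summary of probe sets, without a version, and whether the cell types were normalized together is not given in the sources used here. Intensities were converted to log2 with no further scaling. Symbols came from the platform annotation, and all 94 members matched RefSeq by Entrez identifier with 0 symbols changed. RefSeq promoter sequences are of GRCm38.p6.

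Tests used limma 3.58.1 in R 4.3.3, two-sided, on 12 group means over 24 arrays (12 residual and 2.408 prior degrees of freedom), with 21 comparisons, of which KO against WT over 6 conditions and MGE against CTX in KO cultures were added after seeing values. The fit was tested on simulated data. The number of arrays limits the precision. The members, gene lists, motifs and comparisons were chosen with earlier results of these data known. Any member could be named. Values of each array were planned for the called member with the largest rise and fall of each complex. This covered the 6 h WT responses and MGE against CTX at 0 h. Such values were also planned for members that are isoforms of a subunit, for up to 4 called genes of other lists, and for Npas4. Several isoforms, such as Cox6b1 and Atp5g1, and several list genes, such as Pdk3 and Gpx1, are given without array values. Other members were described after their values were seen.

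Repeat numbers were taken from the titles. Deviations from the group means of arrays with the same number correlated at 0.111 to 0.711 in all 15 pairs of CTX groups. All were over 0.1, so the numbers were taken to pair the CTX arrays. The main fit ignored this pairing, and a replicate block was run as an alternative. Alternatives were cyclic loess, other filters, the mean of a gene's probe sets, an intensity trend with robust prior, 1 cell type at a time, a replicate block, and leaving out each array.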

Additional observations from a re-analysis of the deposited data

Results flagged for a closer look

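The response to 6 h of depolarization differed between WT cultures of MGE and CTX, by the limma test of the difference itself, for 8 genes of the lists of related genes. Of the members 0 passed this limma test, with 6 at an unadjusted p under 0.05. All values here are MGE minus CTX in log2 units with SE. The regulator Nrf1 rose in both and less in MGE cultures (-1.229 ± 0.31, adjusted p = 0.022), Tfam fell in both and less in MGE cultures (0.717 ± 0.17, adjusted p = 0.015), and the coactivator Ppargc1b rose in MGE and fell in CTX cultures (1.285 ± 0.28, adjusted p = 0.011). The complex III assembly factor Uqcc1 had 0.781 ± 0.20 (adjusted p = 0.022). Of the tricarboxylic acid cycle, Ogdh, a subunit of 2-oxoglutarate dehydrogenase, fell in MGE and rose in CTX cultures (-1.138 ± 0.18, adjusted p = 0.002), and Suclg1, of succinyl-CoA ligase, had 0.591 ± 0.14 (adjusted p = 0.018). Slc25a3, the mitochondrial phosphate carrier that supplies ATP synthase, had -0.623 ± 0.14 (adjusted p = 0.011). Npas4 had -2.734 ± 0.35 (adjusted p = 0.00043). Its 0 h values lay below the array median in all groups, so the sizes of its responses rest on a low baseline.

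Under the alternatives run, the call of this difference was lost on leaving out at least 1 array for Nrf1, Tfam, Uqcc1, Suclg1 and Slc25a3, and was kept for Ogdh, Ppargc1b and Npas4. The separate calls of the CTX response of Ogdh and of the response of Ppargc1b in each cell type were lost without single arrays. The 6 h response of Npas4 also differed between KO and WT CTX cultures, by -3.938 ± 0.35 (KO minus WT, adjusted p = 0.00023).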

How the results depend on the processing

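No called member reversed its direction under the alternatives run; members without a call were not followed. Leaving out 1 array at a time moved the number of called members most: MGE WT cultures at 6 h had 1 to 12 and at 1 h 0 to 6, CTX WT at 6 h 6 to 8, CTX KO 4 to 8 and MGE KO 1 to 2. KO against WT in MGE cultures at 0 h had 0 to 14, its mean over 6 conditions 0 to 14, the difference of the 6 h response between cell types 0 to 4, and that between genotypes in MGE cultures 0 to 1. The highest of these for MGE WT cultures, the KO comparisons and both differences came without the first MGE WT 0 h array, which leaves the second to stand for its group with the spread of the others. In each of these fits the share of all genes called was larger than that of the members. Under the mean of a gene's probe sets, 17 members were called in CTX WT and 4 in MGE KO cultures at 6 h, 2 at 1 h in MGE WT, 2 at 1 h in MGE KO, and 1 in the difference of the 6 h response between cell types. Of all genes 4438, 2194, 103, 75 and 1290 were called in these comparisons, in that order. Cyclic loess gave 1 member in the difference between cell types, with 1305 of all genes called. The cause was not tested. Calls kept under every alternative were 1 of 4 (MGE WT, 6 h), 3 of 11 (CTX WT), 1 of 2 (MGE KO), 4 of 12 (CTX KO), and in MGE against CTX 57 of 73 (WT, 0 h), 53 of 71 (WT, 6 h) and 54 of 68 (KO, 0 h).

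With the replicate block, called members at 6 h were 14 in CTX WT (5042 of all genes), 12 in CTX KO (5085), 4 in MGE WT (3781) and 2 in MGE KO cultures (2637). In MGE against CTX they were 76 (8582 of all genes), 71 (7552) and 68 (6457) for WT 0 h, WT 6 h and KO 0 h. They were 0 elsewhere, and never over 1.5 times the count without the block. In MGE cultures 13 of 15 pairs of groups correlated over 0.1 (-0.23 to 0.857), so by this cut the numbers were not taken to pair the arrays there. The pairs not over 0.1 both included the MGE WT 0 h arrays. The median correlation was 0.612 in MGE and 0.369 in CTX cultures. Called genes outside the chain reversed only under the mean of probe sets: Dlat to 0.05 (CTX WT, 6 h) and -0.221 (MGE against CTX, WT 0 h), Etfdh to 0.319 (MGE WT, 6 h) and -0.003 (MGE against CTX, WT 6 h), Sod2 to 0.036 (MGE against CTX, KO 0 h) and Yy1 to -0.731 (MGE against CTX, WT 0 h, adjusted p = 0.00025). The cause was not tested for these. With no filter the median of all genes moved by -0.113 in MGE against CTX at 6 h and by -0.128 in the difference of the 6 h response. Of the 89 members, 48 had several tested probe sets, and in the 6 h responses and MGE against CTX none had another one called in the opposite direction. Agreement was not complete. In MGE against CTX all probe sets shared the call for 33 of 39 called genes (WT, 0 h), 31 of 39 (WT, 6 h) and 30 of 40 (KO, 0 h). At 6 h this held for 3 of 4 in CTX WT, 3 of 4 in CTX KO, 1 of 1 in MGE WT and 0 of 1 in MGE KO cultures.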

Other observations

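The glucose transporter genes Slc2a1 and Slc2a3 rose at 6 h of depolarization in CTX WT cultures by 1.94 ± 0.28 and 0.81 ± 0.17 (limma adjusted p = 9.9e-05 and 0.0018), and Slc2a3 rose in MGE WT cultures by 0.79 ± 0.17, a call lost without the first 6 h array (0.68, adjusted p = 0.06) and reduced to 0.445 (adjusted p = 0.048) without the second 0 h array. Of the 18 genes of the glycolysis list, 2 rose and 2 fell in MGE and 3 rose and 1 fell in CTX WT cultures (22.2% called in each, against 25.3% and 35.2% of all genes). Those called in MGE WT cultures were Slc2a1, Slc2a3, Pfkl and Pfkm, and each of them lost its call under an alternative. Pdk3, a kinase that inactivates pyruvate dehydrogenase, rose by 1.43 ± 0.16 in MGE and 1.68 ± 0.16 in CTX WT cultures. Of the 12 genes of the tricarboxylic acid cycle 1 rose and 1 fell in each (16.7%).

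Between the cell types, the antioxidant enzyme genes Gpx1 and Gpx4 were higher in MGE than in CTX WT cultures at 0 h, by 1.87 ± 0.20 and 1.19 ± 0.14 (limma adjusted p = 3.9e-06 and 8.1e-06). Mcu, the pore of the mitochondrial calcium uniporter, was lower by 1.25 in MGE cultures (adjusted p = 0.00014), and Pfkfb3, an activator of glycolysis, differed by -1.87 (MGE minus CTX), or by -1.021 with the mean of its probe sets. Cox7b2, an isoform of a complex IV subunit that was not tested, lay at 6.04 to 6.95 on the 4 CTX arrays at 6 h and at 4.55 to 5.14 on the 4 at 0 h.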
